A study of Mus musculus with 8 samples.

Results

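B2 elements are short interspersed repeats of the mouse genome, and the small RNAs described here are those that the authors' annotation gave to a name starting with B2_. Of 6246223 distinct small RNA sequences in the deposited list, 61618 carried such a name, and 48469 of these were 24 to 33 nt long, the size range of piRNAs. This window of 24 to 33 nt held 4883266 sequences of all annotations. Members were chosen by the annotation name and the length alone. These names occurred in the window, B2_Mm2 with 30546 sequences (63.02% of the members), B2_Mm1t with 9188 (19.0%) and B2_Mm1a with 8735 (18.0%).

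The series sequenced small RNA of 19 to 33 nt from mouse testes. The 8 libraries came from tdrd1-KO homozygotes and tdrd1-KO heterozygotes at 18.5 days after conception, and from tdrd6-KO homozygotes and tdrd6-KO heterozygotes whose age after birth was 18 days, 25 days or 6 weeks. Each group had 1 library. The labels gave no strain, no wild-type testis and no description of the alleles, and heterozygotes carry 1 copy of the mutant allele too. The list pooled the libraries, and none of its 3 columns named a library, a read number, a strand or a coordinate. Homozygous and heterozygous testes were therefore not compared, the depth was unknown, and the values below count distinct sequences. A sequence counts once however often it was read. Intervals are exact Clopper-Pearson 95% intervals and cover counting error only. Neighbouring sequences of 1 precursor are not replicates, so no p-values were computed.

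B2 elements descend from a transfer RNA gene. RNA polymerase III transcribes them from an internal promoter with an A box and a B box, they end in an A-rich tail with AATAAA motifs, and they move through the reverse transcriptase of L1 elements. In male germ cells, Piwi proteins bind piRNAs, which usually begin with U. In the ping-pong cycle a piRNA guides cleavage of the opposite strand 10 bases from its own 5' end. The new piRNA then overlaps the guide by 10 bases and has A at position 10 where the guide begins with U. Tdrd1 and Tdrd6 encode Tudor-domain proteins that bind Piwi proteins. The deposited sequences write U as T.

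Because most members matched many places, they were set against 1 common B2 sequence, which was assembled from the most repeated B2 sequences in the list itself. A pair of forms came out, a short form of 178 bases and a long form of 179 bases, which had 1 extra base at position 35 and differed from the short form at 5 positions in all. The start of both forms was chosen and trailing A bases were left out, so these lengths do not include the A tail. Positions below count along the long form from its 5' end. The majority base of B2_Mm1a sequences differed from that of B2_Mm2 sequences at 15 positions and from that of B2_Mm1t sequences at 7, and B2_Mm1t and B2_Mm2 differed at 8. The majority of B2_Mm1a sequences had the extra base, and the majority of B2_Mm1t and B2_Mm2 sequences lacked it. The assembly started from a B2 form of the B box, which also set the sense strand, so the box is a landmark and its presence is no result. In each form and each name, the letters TGGCNNAG of the A box lay at positions 14 to 21 and TTCAANTCC of the B box at 61 to 69, both on the sense strand. The motif AATAAA lay at 161 to 166, 165 to 170 and 169 to 174, with each copy overlapping the next. Both strands were searched. On either strand, windows of 179 bases of 32851 RefSeq promoters held the A box letters in 13.3%, the B box letters in 0.831% and AATAAA in 10.6% of cases. The more general B box consensus of RNA polymerase III genes was not found in any form.

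A genomic copy shows the element that the small RNAs follow. Among annotated noncoding exons that overlap no exon of a coding gene, the copy in the gene model Gm44044 held the most B2 small RNAs as exact matches, 811 in all, of which 446 were sense and 365 antisense. It lies at chr6:100273338-100273516 on the minus strand (GRCm38, GENCODE M21), has the length of the long form and differs from the nearest B2 form at 8 positions. These 811 sequences matched at least 135 and at the median 8786 genome positions each, so they cannot be assigned to Gm44044. In the copy, capitals mark positions 45 to 54, where the most frequent sense 5' end (first capital) and the most frequent antisense 5' end (last capital, read leftward on the other strand) lay.
Gm44044 B2 copy: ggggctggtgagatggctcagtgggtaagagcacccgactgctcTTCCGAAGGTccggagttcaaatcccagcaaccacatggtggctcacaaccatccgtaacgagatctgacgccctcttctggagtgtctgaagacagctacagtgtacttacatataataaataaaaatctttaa

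The next 2 sequences show a 10-base overlap at a single place of the genome. Each mapped to 1 position, both carried the name B2_Mm2, and they lay on opposite strands of a noncoding exon of Gm45114, at chr7:19761355-19761382 on the plus strand and chr7:19761337-19761364 on the minus strand (GRCm38). Capitals mark the first 10 bases of each, which are reverse complements of each other.
Gm45114 plus strand: TCCTTCCTCAgaagtgtctgaagacagc
Gm45114 minus strand: TGAGGAAGGAgtcagatcttgttacaga

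The last sequence shown is a B2_Mm2 small RNA of 1 position. Among those located in noncoding exons outside exons of coding genes, its 5' end had the most length variants, 6 in all. This small RNA lies at chr8:95809778-95809808 on the plus strand, in a noncoding exon of 4930513N10Rik. Capitals mark its first base and its base at position 10. It was more than 5 bases away from the common B2 sequence. No 5' end of B2_Mm1a or B2_Mm1t had over 1 such variant.
4930513N10Rik small RNA: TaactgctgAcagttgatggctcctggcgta

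B2 small RNAs were largely repetitive. Only 17647 of the 48469 members (36.4%, 35.98 to 36.84) mapped to 1 position, against 90.6% of 57407 sequences named B3 or B3A, the older relatives of B2, 56.8% of 85128 sequences with B1_ names and 98.4% of 793803 sequences annotated to mRNAs. The median member matched 5 positions, while the medians of B3, B1_ and mRNA sequences were 1. Another 10492 members (21.6%) had 2 to 10 positions, 9638 (19.9%) had 11 to 100, 7095 (14.6%) had 101 to 1000 and 3597 (7.42%) had over 1000. The names differed in this respect. A single position was given for 42.5% of B2_Mm2, 28.5% of B2_Mm1t and 23.4% of B2_Mm1a sequences, and over 1000 positions for 5.44%, 8.91% and 12.8% of them in the same order.

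**Figure D1:**
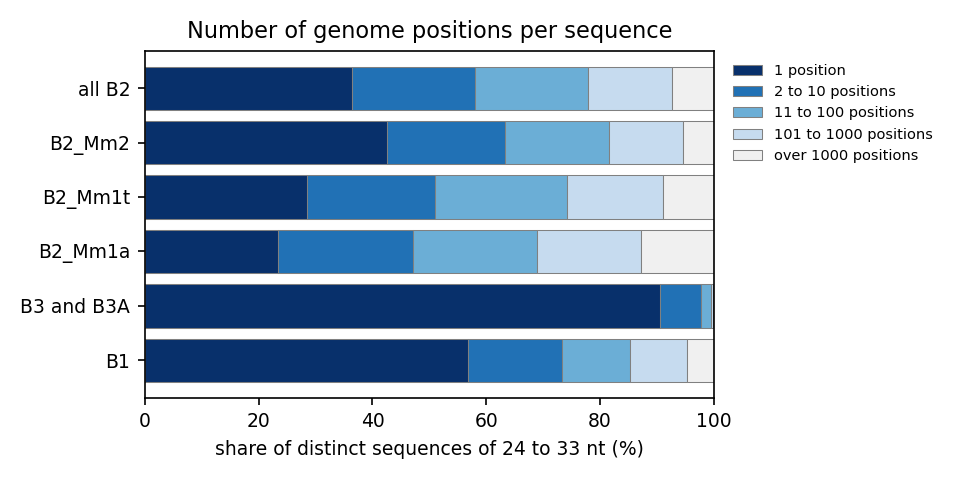
Share of distinct sequences of 24 to 33 nt (x axis, %) by the number of genome positions to which each mapped, for all B2 names, each B2 name, B3 with B3A, and B1 names (rows). B2_Mm2 had 42.5% at 1 position and B2_Mm1a 23.4%, against 90.6% for B3 and B3A.

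The 3 names were not always given alike. A sequence and its exact reverse complement match the same places and should get 1 name. The list held 776 such pairs, all 776 with the same map number on both strands, but only 526 (67.8%, 64.4 to 71.1) had the same name. Names were the same in all 7 pairs of 1 position and in all 14 pairs of 2 to 10 positions, but in 322 of 493 pairs (65.3%) of over 1000 positions. Of 6167 starts of 24 bases shared by several members, 1253 (20.3%) carried several names, which was 3.04% at 1 position and 42.3% at over 1000 positions. Where a placed sequence was nearest to the majority sequence of 1 name, that name was its own in 84.1% of B2_Mm2, 79.1% of B2_Mm1a and 55.6% of B2_Mm1t sequences. The majority sequences came from the same members, so these shares describe how well the names separate and test nothing. Comparisons between names are therefore given below for sequences of 1 position too, except in the search for partners without the element.

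The common element covered the repeated B2 small RNAs far better than those of 1 position. It was assembled from the most repeated sequences, so this order, and the high map numbers of exact matches, follow from how it was made. Within 3 mismatches and without gaps, 29736 members (61.4%, 60.9 to 61.8) were placed on it. The share was 20.3% for members of 1 position, 69.3% for 2 to 10 positions, 88.5% for 11 to 100, 96.2% for 101 to 1000 and 97.9% for over 1000. By name, 76.2% of B2_Mm1a, 70.4% of B2_Mm1t and 54.4% of B2_Mm2 sequences were placed. At 1 position these shares were 35.7% of B2_Mm1a, 27.7% of B2_Mm1t and 16.4% of B2_Mm2. The 2124 members with no mismatch had a median map number of 7506, and none of them mapped to 1 position. Members with 1, 2 and 3 mismatches had median map numbers of 172, 11 and 2. Of the 17647 members of 1 position, 10840 were more than 5 mismatches away. Of all listed sequences of 24 to 33 nt within 3 mismatches of the element, 95.7% carried a B2_ name.

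Sense and antisense B2 small RNAs were both abundant, with an excess of sense. Of the placed sequences, 17161 were sense and 12575 antisense, a sense share of 57.7% (57.1 to 58.3). It was 63.5% (62.3 to 64.7) for B2_Mm1a, 60.7% (59.5 to 61.9) for B2_Mm1t and 54.2% (53.5 to 55.0) for B2_Mm2. Among placed sequences of 1 position it was 61.9% (58.3 to 65.4) for B2_Mm1a, 64.6% (61.0 to 68.1) for B2_Mm1t and 55.1% (53.0 to 57.3) for B2_Mm2. B2_Mm2 had the lowest sense share at 1 position too, while the order of the other names turned round within overlapping intervals. The order of the names did not hold at over 1000 positions, where the shares were 60.4% (57.4 to 63.3) for B2_Mm1a, 51.2% (47.7 to 54.7) for B2_Mm1t and 52.9% (50.5 to 55.4) for B2_Mm2. The B2_Mm1t interval there, and the interval of B2_Mm2 at 101 to 1000 positions (49.1 to 52.3), included equal strands.

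The strands differed in their base signature. Of all members, 65.5% (65.1 to 65.9) began with T and 41.2% (40.8 to 41.7) had A at position 10, where positions 9 and 11 had a mean of 22.3% A. Among sense sequences 71.0% (70.3 to 71.7) began with T, among antisense sequences 53.0% (52.1 to 53.9). Position 10 was A on 30.03% (29.3 to 30.7) of the sense and 57.0% (56.1 to 57.8) of the antisense strand, with 18.1% and 22.8% A at the neighbouring positions. The pattern of T first without A at position 10 held 51.0% of sense and 26.1% of antisense sequences. The opposite pattern of A at position 10 without T first held 9.98% of sense and 30.1% of antisense sequences. Single 5' ends of the element, each counted with all its length variants, weighed on these shares. T came first in 98.8% of 1526 sense sequences at position 45. It came first in 0.980% of 1020 antisense sequences at position 54 and 2.79% of 574 at 55, but in 98.3% of 659 at 90. The contrast without the leading ends was not tested.

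The same contrast was present in each name and at single positions. Several leading 5' ends were shared by the names and by sequences of 1 position, so these are not separate repeats of it. T came first in 68.0% of sense and 49.0% of antisense B2_Mm1a sequences, in 70.8% and 55.8% of B2_Mm1t, and in 72.5% and 53.3% of B2_Mm2. A at position 10 stood in 26.1% of sense and 55.1% of antisense B2_Mm1a sequences, in 26.95% and 56.55% of B2_Mm1t, and in 33.2% and 57.7% of B2_Mm2. Placed sequences of 1 position had T first in 77.4% (sense) and 51.6% (antisense), and A at position 10 in 30.4% (sense) and 57.1% (antisense). By name at 1 position, T came first in 74.6% of sense and 49.8% of antisense B2_Mm1a, 78.7% and 53.7% of B2_Mm1t, and 77.98% and 51.6% of B2_Mm2 sequences. A at position 10 stood there in 23.8% of sense and 59.1% of antisense B2_Mm1a, 27.5% and 55.3% of B2_Mm1t, and 34.1% and 57.1% of B2_Mm2 sequences. Among sequences of over 1000 positions the first base no longer separated the strands, with 48.0% (45.7 to 50.2) T on the sense and 47.9% (45.4 to 50.4) on the antisense strand. There A at position 10 was at 30.6% and 44.5%.

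**Figure D2:**
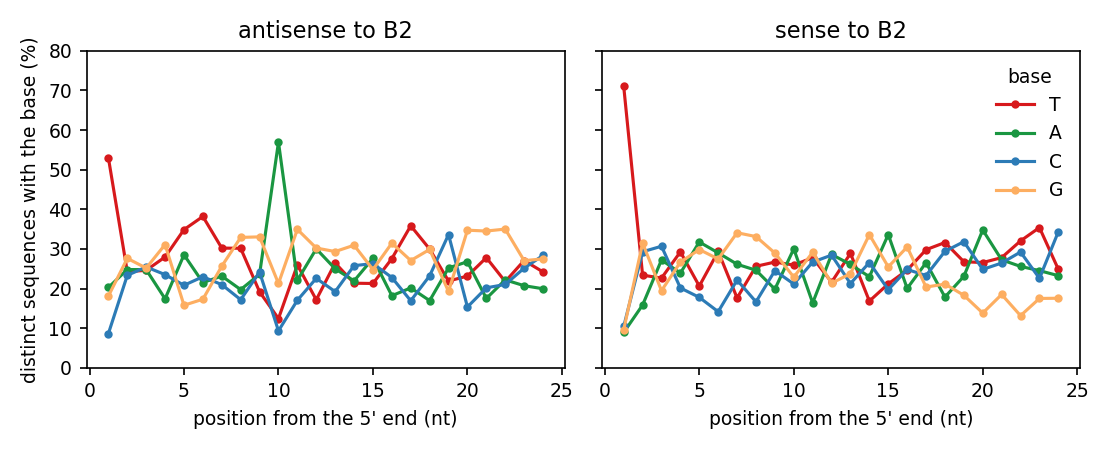
Share of placed B2 sequences with T, A, C or G (y axis, %) at each position from the 5' end (x axis, nt), antisense on the left and sense on the right. T at position 1 reached 71.0% on the sense strand and 53.0% on the antisense strand, and A at position 10 reached 57.0% on the antisense strand and 30.03% on the sense strand.

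Set beside other lists, B2 had fewer sequences with T first and a middle share with A at position 10. Over all map numbers, its excess of A there over positions 9 and 11 was the largest of these lists. It was 18.9 percentage points, against 15.8 in B1_, 11.8 in B3 and 1.04 in mRNA sequences. The lists differ in map numbers, and over 1 position B2 and B1_ were close, with 21.5 and 21.2 points. B1_ was ahead at 11 to 100 positions (24.5 against 23.4 for B2), and B3 at 101 to 1000 positions (26.2 against 21.8). B2 led at 1 position, at 2 to 10 and at over 1000 positions. T came first in 65.5% of B2 sequences, against 76.2% of B3, 72.6% of B1_ and 78.4% of mRNA sequences. A at position 10 stood in 41.2% of B2 sequences, against 35.5% of B3, 43.5% of B1_ and 25.8% of mRNA sequences. Within B2, A at position 10 was more frequent where another base than T came first, 49.2% against 37.0%. In B3 the same shares were 36.97% and 34.99%, in B1_ 41.1% and 44.3%. For members of 1 position, T came first in 68.8% of B2, against 76.5% of B3, 74.6% of B1_ and 78.5% of mRNA sequences. No test of these differences between lists was possible, because the list has no replicates.

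Antisense B2 small RNAs were longer than sense ones. The mean length of all members was 27.81 nt (SD 2.08), and 27 nt was the most frequent length. Sense sequences averaged 27.71 nt (SD 2.13) with a mode of 27 nt, which 3160 sequences (18.4%) had. Antisense sequences averaged 28.05 nt (SD 2.03) with a mode of 29 nt, which 2386 sequences (19.0%) had. Lengths of 24 to 27 nt made up 49.2% of sense and 39.2% of antisense sequences. The modes of 27 nt and 29 nt were the same in each of the 3 names and among sequences of 1 position over all names. By name at 1 position, antisense and sense modes were 29 nt and 26 nt in B2_Mm2, 29 nt and 27 nt in B2_Mm1t, and 28 nt on both strands in B2_Mm1a. Among sequences of over 1000 positions both strands had a mode of 27 nt, and means of 27.73 nt (sense) and 27.71 nt (antisense).

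The difference in mode was present in 3 of 4 base classes. Sense sequences had a mode of 27 nt in all 4 classes formed by T first and A at position 10. Antisense sequences had a mode of 29 nt in the 3 classes with T first, A at position 10 or both, and 27 nt in the class with neither. In the class with both, the means ran the other way, 28.20 nt for sense and 28.14 nt for antisense sequences. Mean lengths also varied between 5' ends. Over 72 sense positions with at least 50 sequences each, the position means ran from 25.81 to 30.08 nt with a mean of 27.71 nt (SD 0.84). Over 55 antisense positions they ran from 25.63 to 29.53 nt with a mean of 27.95 nt (SD 0.69).

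**Figure D3:**
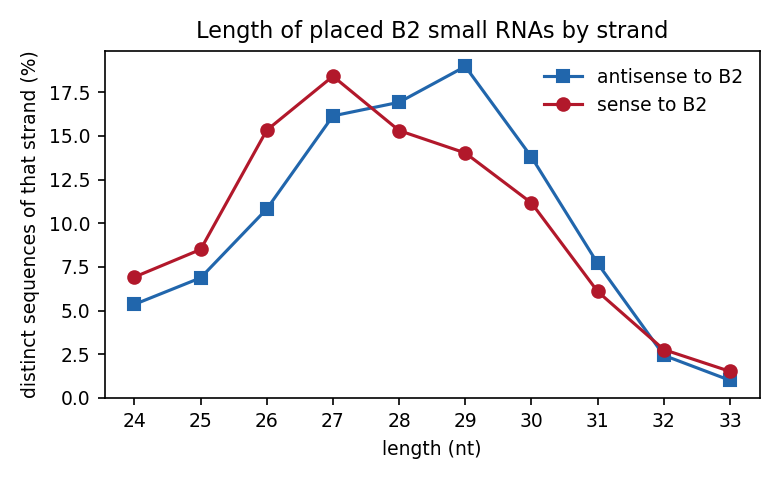
Share of placed sequences of each strand (y axis, %) by length (x axis, nt), for antisense (squares) and sense (circles) B2 small RNAs. Antisense sequences were most frequent at 29 nt with 19.0% and sense sequences at 27 nt with 18.4%.

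The 5' ends fell on few positions of the element. Sense 5' ends used 155 of the 179 positions, but the 10 leading positions held 7464 sequences (43.5%), and 13 positions were enough for 50% of them. Antisense 5' ends used 154 positions, with 5325 sequences (42.3%) at the 10 leading ones and 15 positions needed for 50%. Each sequence had to lie within the element over its whole length of at least 24 nt. Sense 5' ends could therefore not fall in the last bases of the element, nor antisense 5' ends in its first bases. Most unused positions follow from this limit, which also lowers the shares of these end regions given below. The median used position had 42 sense or 30 antisense sequences. Sense 5' ends were concentrated in the first 60 positions, which held 53.1% of them, followed by 31.2% at 61 to 120 and 15.7% at 121 to 179. Antisense 5' ends were most frequent at 61 to 120 with 56.8%, with 21.3% at 1 to 60 and 21.8% at 121 to 179.

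The leading sense 5' end was position 45, between the A box and the B box. It had 1526 sequences (8.89% of sense), 208 of them of 1 position. Of these, 98.8% began with T and 1.31% had A at position 10. Sequences of 25 nt or more from this end ran through the whole B box. Their most frequent length was 29 nt (408 sequences), with a second group at 26 nt (295) and 27 nt (275). Position 46 followed with 980 sequences, position 43 with 890, position 99 with 713 and position 124 with 688, and each of these 4 ends had T first in over 90% of its sequences. The long form has T at all of these positions and at 45, so placement within 3 mismatches largely set the base shares of these ends. Over all map numbers, position 45 was the leading sense end in each name, with 9.14% of sense B2_Mm2, 9.59% of B2_Mm1t and 7.71% of B2_Mm1a sequences. Position 99 ranked second in B2_Mm2 with 5.99%, but 10th in B2_Mm1t with 2.24% and 12th in B2_Mm1a with 2.01%. Position 99 is one of those at which the majority base of B2_Mm1a and B2_Mm1t differed from that of B2_Mm2. At 1 position, the leading sense end of B2_Mm2 was 99 with 106 sequences, just ahead of 105 at position 45, and position 45 led in B2_Mm1t with 54 and in B2_Mm1a with 49.

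The leading antisense 5' end was position 54, opposite base 10 of the leading sense RNAs. It had 1020 sequences (8.11% of antisense), 156 of them of 1 position. Only 0.980% of these began with T, and 96.6% had A at position 10, which lies opposite the T at which the sense RNAs of position 45 began. The long form has T at positions 45 and 54, so placement within 3 mismatches at position 54 largely set both shares. Lengths of 28 nt (295 sequences) and 27 nt (222) were most frequent there. Position 54 led in B2_Mm2 (9.14% of antisense) and B2_Mm1t (5.78%), while in B2_Mm1a position 55 led with 187 sequences, ahead of 178 at position 54. At 1 position, 54 led in B2_Mm2 with 110 sequences, and 55 led in B2_Mm1t with 31 and in B2_Mm1a with 35. The next antisense ends differed in their first base. Position 90 (659 sequences), position 71 (656) and position 108 (568) had T first in 98.3%, 99.4% and 98.8% of sequences. Position 55 (574 sequences) had it in 2.79%. All 5 had A at position 10 in over 70% of sequences. These shares too were largely set by the bases of the element where the sequences were placed.

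Along the element, 5' ends favoured T. A T of the sense strand carried a mean of 243.9 sense 5' ends per position, against 29.1 for A, 57.8 for C and 49.8 for G. Position 45 alone held 1526 of the 11221 sense 5' ends on T. Bases were those of the long form for all names. The 293 sense 5' ends at position 36 thus counted as C, though the majority of B2_Mm1t and B2_Mm2 had T there. On the antisense strand a T carried a mean of 122.6 antisense 5' ends, against 55.7 for A, 37.9 for C and 58.0 for G. Over its whole length the long form has 46 T and 49 A on its sense strand, so its T content was nearly even between the strands. All positions entered the means, including end positions where no 5' end of that strand could be placed. This lowered the sense means mainly for A and T, which make up most of the last bases. On the antisense strand it lowered the mean of C most.

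**Figure D4:**
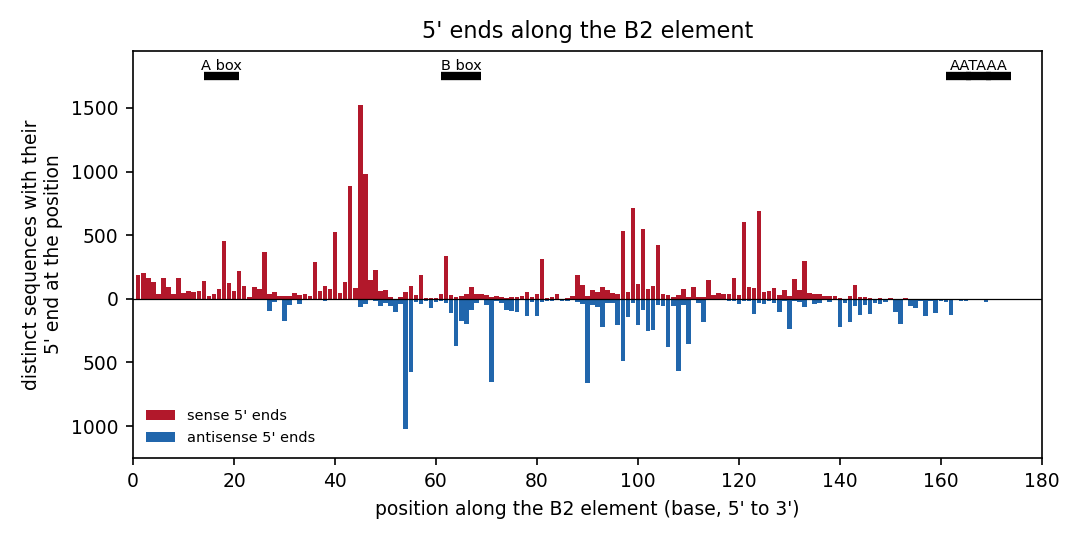
Number of distinct B2 sequences with their 5' end at each position of the element (x axis, base), sense upward and antisense downward (y axis), with the A box, B box and AATAAA motifs as bars on top. Sense position 45 had 1526 sequences and antisense position 54 had 1020, and these ends overlap by 10 bases.

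Sense and antisense 5' ends overlapped by 10 bases more often than by any other length from 1 to 25 bases. On the element, 4395633 pairs of 1 sense and 1 antisense sequence overlapped by 10 bases (11.5% of pairs at overlaps of 1 to 25), against a mean of 1405880 pairs (SD 329402) at the other 24 overlaps. The highest of those was 2187609 pairs at 12 bases. The 10-base value was 3.13 times the mean of the others. This ratio was 3.41 for pairs within B2_Mm2, 2.99 within B2_Mm1t and 2.95 within B2_Mm1a. Among sequences of 1 position it was 3.66 over all names, 3.65 within B2_Mm2, 4.31 within B2_Mm1t and 4.03 within B2_Mm1a. These pairs share positions of the element, not necessarily a genomic locus, and 2 sequences of 1 position may come from different copies.

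A few positions made up most of the excess at 10 bases. These shares are of the 10-base pairs that do not span position 35. The pair of sense position 45 and antisense position 54 gave 35.4% of them, 46 with 55 gave 12.8%, 99 with 108 gave 9.22%, 62 with 71 gave 5.002% and 81 with 90 gave 4.71%. Without sense position 45 the ratio fell to 2.24, and without the 5 leading sense positions to 1.87. In the Gm44044 copy, 7 exact sense sequences of 24 to 30 nt started at position 45 and 6 exact antisense sequences of 24 to 30 nt started at position 54. The sense ones matched 1386 to 1463 genome positions and the antisense ones 5711 to 6541.

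**Figure D5:**
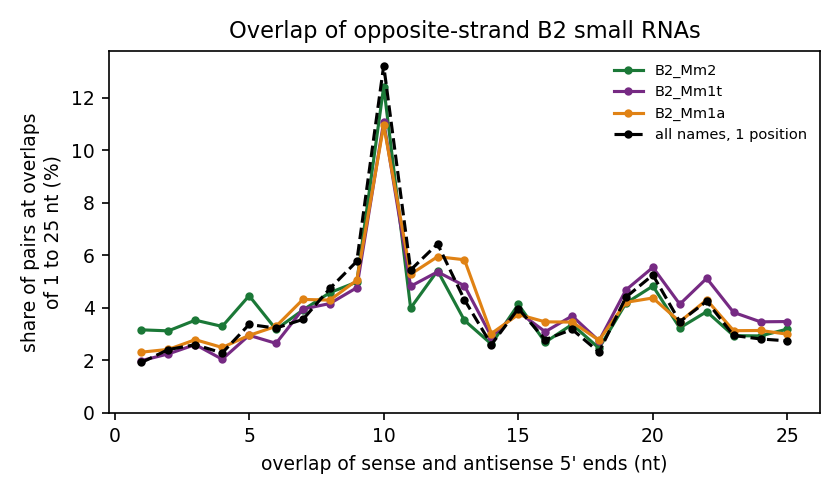
Share of opposite-strand pairs (y axis, % of pairs at overlaps of 1 to 25 nt) by the overlap of their 5' ends on the element (x axis, nt), for pairs within each B2 name and for all sequences of 1 position. Each line has its highest value at 10 nt, at a ratio over the mean of the rest of 3.41 for B2_Mm2, 2.99 for B2_Mm1t, 2.95 for B2_Mm1a and 3.66 at 1 position.

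Partners at 10 bases were also found without the element. For each of 27268 distinct 5' ends of members, the list was searched for an opposite-strand 5' end whose first 10 bases were complementary. A partner at 10 bases existed for 55.3% (54.7 to 55.9), against a mean of 43.3% (SD 1.85) over overlaps of 11 to 20 bases compared in the same way. In members of 1 position the shares were 35.7% and 21.5%. In members that could not be placed on the element they were 36.5% and 22.95%. The ratio was 1.28 in all B2 members and 1.66 at 1 position, against 1.45 and 1.502 for B3 and 1.33 and 1.57 for B1_ searched within their own lists. With B1_ 5' ends as partners, 8.69% (8.36 to 9.03) of B2 5' ends had one at 10 bases. The mean at the other overlaps was 6.53% (SD 0.79), a ratio of 1.33, and the highest of them was 8.06% (7.74 to 8.39) at 20 bases. An excess at 10 bases over this mean was thus measured with partners of another family too, and the part of base composition in the B2 values was not tested. For B2_Mm2 and B2_Mm1a as partners of each other, the shares at 10 bases were 26.2% and 48.9%, against 19.3% and 37.0% at the other overlaps.

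Between a 3' end and the next 5' end of the same strand, the most frequent spacing was 8 bases on both strands. Over distances of 1 to 20 bases there were 1571434 sense pairs at 8 bases, 1.27 times the mean of 1237530 (SD 104745) at the other distances. There were 1200668 antisense pairs at 8 bases, 1.22 times the mean of 987097 (SD 105159). A distance of 7 bases had nearly as many antisense pairs, 1189436, so 8 bases did not stand alone on that strand. At a distance of 1 base, where sequences cut one after another would meet, there were 1345156 sense and 946929 antisense pairs. How far single leading 5' ends set these values was not tested.

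B2 small RNAs of 1 position could be placed in the genome only where they matched annotated transcripts. Of the 17647 members of 1 position, 1770 (10.03%, 9.59 to 10.5) matched a GENCODE M21 transcript exactly over their whole length, and 1769 of these had 1 place in GRCm38 exons. By name, 11.5% of B2_Mm2, 5.81% of B2_Mm1t and 5.91% of B2_Mm1a members of 1 position matched. They lay on the strand of the gene in 1493 cases (84.4%), on the other strand in 253 (14.3%) and on both in 24, where genes overlap. The first base lay in a 3' untranslated region in 1255 sequences (70.9%), in a noncoding exon in 498 (28.1%), in coding sequence in 12 and in a 5' untranslated region in 5. Introns and the space between genes, where B2 copies are also known to lie, were not searched.

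The orientation of the B2 copies relative to their genes was mixed. Of the matched sequences, 281 could be placed on the element, 2 of them where genes overlap on both strands. The 199 of these on the strand of the gene came from 126 single elements, 63 with sense and 63 with antisense B2 sequences. Single elements are matches merged within 50 bases, so 1 B2 copy may count as several. Of the 199 sequences, 97 (48.7%) were sense to B2. Without the 18 from Fam206a, all antisense to B2, 97 of 181 (53.6%) were sense. The 80 on the other strand came from 38 elements, 23 with sense and 15 with antisense B2 sequences, and 32 of the 80 (40.0%) were sense to B2. A single element, in Stox1, gave 34 of these 80, none of them sense to B2, and without it 32 of 46 (69.6%) were sense. Sequences of 1 element share their orientation, so no interval is given.

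A few gene ends held many of these sequences. The 1769 sequences fell into 518 windows of 10 kb, 293 of them with 1 sequence, and the 10 leading windows held 520 sequences (29.4%). Merging matches within 50 bases gave 620 groups, called single elements here, and merging within 200 bases gave 545. A B2 copy with matches further apart can count as several single elements. The leading window and element, in the 3' untranslated region of Fam206a (chr4:56808419-56808599), held 171 sequences, 169 on the strand of the gene and 2 on the other. Of these, 63.2% began with T, 51.5% had A at position 10 and the mean length was 28.54 nt. Both strands met there. Of 13 pairs with a 10-base overlap among all located sequences, 10 were in this Fam206a element, where they involved only the 2 sequences of the minus strand, and the others lay in Ttc9c, Rbm34 and Gm45114. The 13 pairs at 10 bases compare with a mean of 9.05 (SD 3.36) at the other 19 overlaps of 1 to 20 bases, which ran from 2 to 15 pairs, a ratio of 1.44.

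The second element lay in the 3' untranslated region of Stox1, a winged helix gene (chr10:62659043-62659226), and its small RNAs ran against the gene. It held 69 sequences, 68 antisense to Stox1 and 1 sense, and 1 of the 35 that could be placed was sense to B2. The windows that followed lay in Sntb2, a syntrophin gene (63 sequences), Rnf139, a ubiquitin ligase gene (39), 2810013P06Rik (33), Dgke, a diacylglycerol kinase gene (31), Zbtb37, a zinc finger gene (30), Hinfp, which encodes a transcription factor of histone genes (30), Ybey, an endoribonuclease gene (27), and Csf2ra, a cytokine receptor subunit gene (27). In Sntb2, Rnf139, 2810013P06Rik, Dgke, Zbtb37 and Hinfp all sequences lay on the strand of the gene. In Ybey, 15 lay on the strand of the gene only and the rest where genes overlap on both strands. In the Csf2ra element, 19 lay on the strand of the gene and 8 on the other. All sequences of the 10 leading windows carried the name B2_Mm2, as did 1497 of all 1770 matched sequences. Sequences of 1 element mostly share a name, so this is no result about the name. Among single elements, Xpnpep3 (26 sequences), 2810013P06Rik (26), Ggnbp1 (25) and Hinfp (24) were also among the 10 leading ones. Sequences of untranslated regions are not shown.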

How the data were processed

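The authors deposited 1 table with a sequence, the number of genome positions it mapped to and an annotation on each line, per the file headers. Its single measured column pooled all libraries (1 column without a library). Aligner, genome build, annotation source and any minimum read number are not given in the sources used here. A map number under another build or mismatch limit would change which members count as having 1 position. The members and lists were chosen with earlier results of these data known. All shares were computed here with Python 3.11.15.

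The element was assembled from B2 15-mers, each weighted by the highest map number (up to 40000) of a sequence that held it, starting at a B2 form of the B box. That form was taken after the general B box consensus of the design had not been found. Extension stopped below a weight of 30 and ends below 1000 were trimmed. The assembly was then cut to start at the letters GGGGCTGG, and trailing A bases were removed. Position 1 and the 3' end were thus set by choice. The most frequent path of another length gave the long form. Majority sequences per name came from 3 rounds with at most 4 mismatches and at least 20 bases per position. Placement was ungapped with at most 3 mismatches on 8 reference sequences. Overlaps that span position 35 are 1 base too long for the short form. A 5' end is the first 20 bases of a sequence. Transcripts were GENCODE M21 on GRCm38, which are spliced. Genes named are those of the 10 leading windows and elements. Printed sequences are from GENCODE transcripts or the deposited list, and none from chromosome 18 was used. Promoters were RefSeq sequences of GRCm38.p6.

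On simulated data, all 4000 sequences made from the element with up to 3 mismatches were put on the right strand and 99.9% at the right 5' end, while 0 of 4000 random sequences were placed. All 327 simulated transcript sequences were found.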

Additional observations from a re-analysis of the deposited data

Results flagged for a closer look

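B2 names also occurred outside the window of 24 to 33 nt. The list held 3030 B2 sequences of 15 to 18 nt, below the labelled size range of 19 to 33 nt. T came first in 28.5% (26.9 to 30.2) of them, and 56.5% of the placed ones were sense. Another 9807 B2 sequences were 19 to 23 nt long, with T first in 48.7% (47.7 to 49.7) and 53.8% sense among the placed ones. Above the window there were 312 sequences of 34 to 36 nt, with T first in 48.7% (43.0 to 54.4) and 64.8% sense among the placed ones. In the window itself T came first in 65.5%.

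Sequences within 3 mismatches of the B2 element also stood under other names. B3 or B3A was the name of 1179 such sequences of 24 to 33 nt, 2.05% of all sequences with those names. As near were 36 sequences named RSINE1, 16 named B4A, 11 named B4, 7 named MTE-int and 6 with B1_ names, smaller numbers of other repeat names, 3 unannotated sequences and 0 sequences annotated to mRNAs.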

How the results depend on the processing

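Of 66 alternatives for 14 results, 21 stayed within the interval (or, for numbers, within 1.5 times) of the reported value. T first was 66.1% at 25 to 32 nt, 62.7% at 19 to 33 nt, 68.8% at 1 position, 63.6% over 1 position and 62.8% with each 5' end once. Without B2_Mm1a or B2_Mm2 it was 66.3% or 63.5%. A at position 10 was 39.8% at 19 to 33 nt, 40.1% at 1 position, 41.9% over 1 position, 38.1% with each 5' end once, and 42.2% or 38.3% without B2_Mm1a or B2_Mm2. The share at 1 position was 37.0% at 25 to 32 nt, 33.3% at 19 to 33 nt and 49.2% with each 5' end once. Without B2_Mm1a, B2_Mm1t or B2_Mm2 it was 39.3%, 38.3% or 26.03%. Mean length was 27.98 nt at 25 to 32 nt, 26.71 nt at 19 to 33 nt and 27.77 nt without B2_Mm2. Partners at 10 bases were found for 56.8% at 19 to 33 nt, 35.7% at 1 position, 62.98% over 1 position, 53.3% without B2_Mm1a, 53.6% without B2_Mm1t and 68.7% with 8 bases compared. The sense share was 56.9% at 19 to 33 nt, 58.4% at 1 position, 59.0% with each 5' end once and 56.0% with at most 1 mismatch. Without B2_Mm1a, B2_Mm1t or B2_Mm2 it was 56.0%, 56.9% or 62.1%.

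Alternatives added after seeing the data gave a ratio at 10 bases of 3.41 within B2_Mm2, 3.66 at 1 position, 2.67 with at most 1 mismatch, and 2.24 or 1.87 without the leading or the 5 leading sense positions. The 10 leading positions held 49.7% of sense and 48.1% of antisense 5' ends at 1 position, and 39.5% and 38.0% with at most 1 mismatch. Without the Stox1 element, the sense share of sequences antisense to their gene was 69.6%. The cause of these shifts was not tested.

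Matching over 16 bases at known positions and counting exact genome matches were not run, since no genome sequence was used here. No paired analysis was possible because the list pools all libraries and each group had 1. Depth is unknown, so neither abundance nor any difference between testes can be read from these counts. Names at high map numbers are uncertain, and copies in introns and between genes were not located.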
